A study of Mus musculus with 4 samples.

Results

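Chromosome 13 of the mouse was read probe by probe, in order of position, in neurospheres that lacked normal Dll1. The members were the 1539 non-control probes that the array files place on chromosome 13, of 41174 probes in all, from a first start at base 3073633 to a last end at base 114436175. They were cut at 48, 64 and 105 Mb into a first window of 585 probes, the second of 331, the third of 523 and the fourth of 100. The chromosome and the cuts were chosen because a long stretch differed between the mutant lines, so the difference between the lines is described here without a test. A further 46 probes labelled as an unplaced part of chromosome 13 were not members.

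The samples were neurospheres, balls of neural stem cells and their progeny that float in a serum-free, EGF-supplied medium. All mice came from crosses of 129/Sv with C57BL/6; the mutant lines are called Dll1-3 and Dll1-5, their age is not given in the labels, and wild-type neurospheres of the same crosses were the control. Each of 4 arrays set mutant RNA against wild-type RNA in different dyes, with 2 arrays per line and the dyes swapped. RNA was pooled from 3 preparations, so each line counted as 1 replicate and n = 2 lines; whether both arrays of a line carried 1 pool is not stated. Values are log2 of mutant over wild type unless a sentence says otherwise.

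Dll1 is a ligand of Notch receptors, and Notch signalling between neighbouring cells keeps neural progenitors from differentiating. The centromere of a mouse chromosome lies at its low-coordinate end, so the windows run away from the centromere. Chromosome 13 carries the largest cluster of histone genes, many of which are expressed as DNA is copied, and, further along, genes of the cell cycle such as Ccnb1, whose product, cyclin B1, drives entry into mitosis with its kinase.

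A block of neighbouring genes in the third window, Rad17, Taf9, Ak6, Cdk7, Mrps36, Cenph, Ccnb1 and Slc30a5, had some of its larger differences between the lines. The sequences before the starts of Ak6 (chr13:100651093-100651342, plus strand), Cdk7 (chr13:100730943-100731192, minus strand), Cenph (chr13:100775900-100776149, minus strand) and Ccnb1 (chr13:100786487-100786736, minus strand) are shown because these neighbours had lower ratios in Dll1-5 than in Dll1-3. That of Plk2 (chr13:110394794-110395043, plus strand) is shown because Plk2 was the highest above wild type of the genes plotted from the fourth window. Each is the 250 bases before the start, 5′ to 3′ on the gene's strand, from RefSeq, build GRCm38.p6. The array files name no build and their positions for these genes differ, so neither set of positions can be carried over to the other. Capitals mark CCAAT, on either strand.
Ak6: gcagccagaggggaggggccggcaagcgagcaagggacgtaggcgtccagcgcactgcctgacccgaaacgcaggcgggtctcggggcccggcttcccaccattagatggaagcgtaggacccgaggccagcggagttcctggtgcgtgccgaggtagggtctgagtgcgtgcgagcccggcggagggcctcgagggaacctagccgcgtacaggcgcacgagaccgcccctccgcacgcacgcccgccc
Cdk7: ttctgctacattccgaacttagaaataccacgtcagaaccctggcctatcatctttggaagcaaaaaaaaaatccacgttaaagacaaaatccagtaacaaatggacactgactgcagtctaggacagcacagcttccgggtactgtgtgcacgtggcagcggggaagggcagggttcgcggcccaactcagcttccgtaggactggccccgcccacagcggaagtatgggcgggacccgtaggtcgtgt
Cenph: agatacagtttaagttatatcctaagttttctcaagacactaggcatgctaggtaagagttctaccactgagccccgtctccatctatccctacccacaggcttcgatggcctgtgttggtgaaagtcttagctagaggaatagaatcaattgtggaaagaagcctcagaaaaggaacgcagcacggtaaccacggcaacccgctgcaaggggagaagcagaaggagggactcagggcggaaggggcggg
Ccnb1: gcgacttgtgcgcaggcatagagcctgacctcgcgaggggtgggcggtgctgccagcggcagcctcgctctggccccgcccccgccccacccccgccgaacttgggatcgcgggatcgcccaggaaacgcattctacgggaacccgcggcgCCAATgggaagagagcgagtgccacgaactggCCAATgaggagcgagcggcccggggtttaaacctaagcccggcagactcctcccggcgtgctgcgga
Plk2: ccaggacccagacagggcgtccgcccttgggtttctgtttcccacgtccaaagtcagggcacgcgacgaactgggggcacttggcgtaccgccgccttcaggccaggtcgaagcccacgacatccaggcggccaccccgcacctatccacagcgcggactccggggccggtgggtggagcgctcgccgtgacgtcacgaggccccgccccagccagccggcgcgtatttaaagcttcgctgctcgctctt
Ccnb1 held CCAAT 2 times, 99 and 67 bases before its start, and the other sequences held none. CCAAT or its reverse complement ATTGG stood in the same stretch of 33.8% of 32851 mouse promoters and of 33.4% of the 611 promoters of chromosome 13. The letters TTTGAA or TTCAAA, the core of the cell cycle homology region, were in none of the 5 and in 16.0% of all promoters. A match is only a run of letters.

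Of the 1539 probes, 1226 passed the filter, which asked that either RNA be well above background on both arrays of at least 1 line, and 313 did not. Among those that passed, 1131 passed in both lines, 59 only in Dll1-3 and 36 only in Dll1-5. Values on all 4 arrays were left for 1217 probes of 810 gene symbols, and 9 were dropped because a spot was marked as an outlier. In each channel 76.5% to 78.5% of chromosome 13 probes were well above background, and precision is limited by there being 4 arrays. Dll1 itself lies on chromosome 17 and stood at -3.31 and -3.22 in Dll1-3 and at -1.65 and -1.64 in Dll1-5; the labels do not say which bases are altered. All 9 markers of neural stem cells were well above background in every channel, with medians of -0.30 in Dll1-3 and -0.21 in Dll1-5. So were 5 of 6 neuronal markers (not Snap25), 5 of 6 of the oligodendrocyte lineage (not Mbp), 3 of 4 of astrocytes (not Gfap), 2 of 4 of microglia and blood and 4 of 6 of endothelium and fibroblasts. Medians of the oligodendrocyte markers were -0.92 in Dll1-3 and -0.17 in Dll1-5, those of the astrocyte markers -0.86 and -0.36, and those of the neuronal markers -0.62 and -0.57. For microglia and blood they were -0.01 and 0.04, and for endothelium and fibroblasts 0.01 and -0.02. The part of these cell types in the results was not tested, and in such bulk RNA fewer cells of a type cannot be told apart from less RNA per cell.

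Along the chromosome the lines ran together, parted and met again. In the first window the medians were 0.03 and -0.02 for Dll1-3 and 0.00 and -0.04 for Dll1-5 (440 probes). In the second they were 0.06 and 0.05 against 0.00 and -0.05 (270 probes). In the third, 41 Mb long by its cuts, they were 0.17 and 0.15 against 0.01 and -0.05 (441 probes). Both Dll1-3 medians of the third window thus lay above both Dll1-5 medians, and the Dll1-5 medians stayed near 0. By line means, Dll1-5 was the lower in 76.4% of the third window's probes, beside 49% of all. In the fourth window both lines were below wild type, at -0.27 and -0.30 in Dll1-3 and -0.23 and -0.26 in Dll1-5 (66 probes).

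Taken probe by probe, Dll1-5 minus Dll1-3 had a median of -0.01 in the first window, -0.09 in the second, -0.24 in the third and 0.04 in the fourth, beside 0.01 over the 34198 probes tested. The quartiles of the third window were -0.60 and -0.01. Arrays of the same dye orientation gave -0.24 and -0.26 in the third window and -0.09 and -0.10 in the second. Taken whole, chromosome 13 had -0.07, and each of the other 18 autosomes lay between -0.06 and 0.07. The shift of the third window was 1.18-fold at the median. It was -0.14 with no filter on dim probes and -0.46 in the scanner software's own ratios, and it was negative under all 17 alternatives run.

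**Figure D1:**
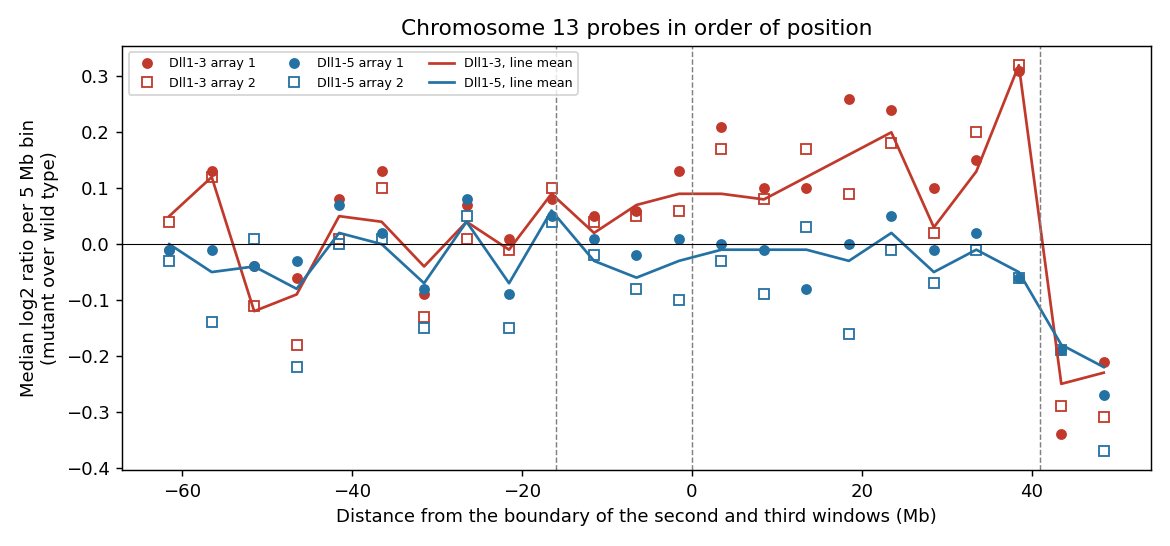
The x axis is the distance in Mb from the cut between the second and the third window, and the y axis is the median log2 ratio of mutant over wild type in bins of 5 Mb. Points are arrays, lines are line means, and dashed lines are the 3 cuts; Dll1-3 lies above Dll1-5 in every bin of the third window and both lines are below 0 in the last 2 bins.

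Bins of 5 Mb placed the change. In the 9 bins up to 45 Mb the median difference lay between -0.10 and 0.01, in the 4 bins from 45 to 65 Mb between -0.12 and -0.08, and in the 8 bins from 65 to 105 Mb between -0.36 and -0.13. The bin of 100 to 105 Mb had -0.36, with medians of 0.31 and 0.32 in Dll1-3 and -0.06 and -0.06 in Dll1-5 (60 probes). The next bin, 105 to 110 Mb, had 0.08, with -0.34 and -0.29 against -0.19 and -0.19 (45 probes). The largest step between neighbouring bins was thus at 105 Mb, while the 4 bins from 45 to 65 Mb lay close to each other, at -0.11, -0.08, -0.09 and -0.12, and the next 2 bins had -0.16 and -0.13. One bin of the third window, 80 to 85 Mb, rested on only 15 probes.

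The 5 members on each side of a cut varied more than the bins. Just below 105 Mb stood Ercc8 at -1.50, Elovl7 at -0.32 and -0.10 on its 2 probes, Depdc1b at -1.43 and, nearest to the cut, the clone AK087779 at -0.01 (Dll1-5 minus Dll1-3). Just above it stood a Pde4d probe at -0.21, the clones 9530083O12Rik at 0.31, AK036012 at 0.03 and A730009E18Rik at 0.05, and a further Pde4d probe at 0.05. At 64 Mb, Zfp455 at -0.19, Zfp458 at -0.39 and -0.26, Zfp595 at -0.65 and Zfp429 at -0.47 faced Zfp874a at -0.03, Zfp874b at 0.29, Zfp58 at -0.29 and Zfp87 at -0.37 and 0. This cut runs through a family of zinc finger genes, and the 5 probes below it were all negative while those above it ran from -0.37 to 0.29. Zfp458, Zfp595 and their neighbours have similar sequences, so a probe of one may also catch RNA of another. At 48 Mb, the clones 1700026N04Rik at -0.01 and A330033J07Rik at -0.03, Rnf144b at -0.10 and Id4 at 0.21 and 0.11 faced TC1449811 at 0.07, Zfp169 at 0.04 and -0.08, AK015319 at -0.09 and A830005F24Rik at 0.43.

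Counts of probes gave the same order. Both Dll1-5 arrays lay below both Dll1-3 arrays for 472 of 1217 chromosome 13 probes, or 38.8%, beside 25.3% of all probes tested and 14.7% to 36% on the other autosomes. They lay above them for 208, or 17.1%, beside 27.1%. With median centring in place of loess only 111 lay below and 67 above. By window the share below was 24.8% in the first (109 of 440), 37.4% in the second (101 of 270), 56.2% in the third (248 of 441) and 21.2% in the fourth (14 of 66). The share above was 22.5%, 14.8%, 10.7% and 33.3%. With 3 arrays, which overlap less often by construction, the probes above numbered 368 without Dll1-3 array 1 and 377 without Dll1-5 array 2. Since these counts use the contrast that chose the members, nothing is read from them beyond their size.

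The channels were then separated to see which RNA differed. Mutant RNA of the third window was lower in Dll1-5 than in Dll1-3 by a median difference of -0.26 in one dye and -0.27 in the other, and wild-type RNA differed by -0.02 and 0.00. In the second window mutant RNA differed by -0.13 in both dyes and wild-type RNA by -0.02 and 0.00. The wild-type channels thus changed little between arrays in either stretch. Over all probes the line difference had an SD of 0.47 in mutant RNA and 0.14 in wild-type RNA, so wild-type RNA varied less over all probes too.

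**Figure D2:**
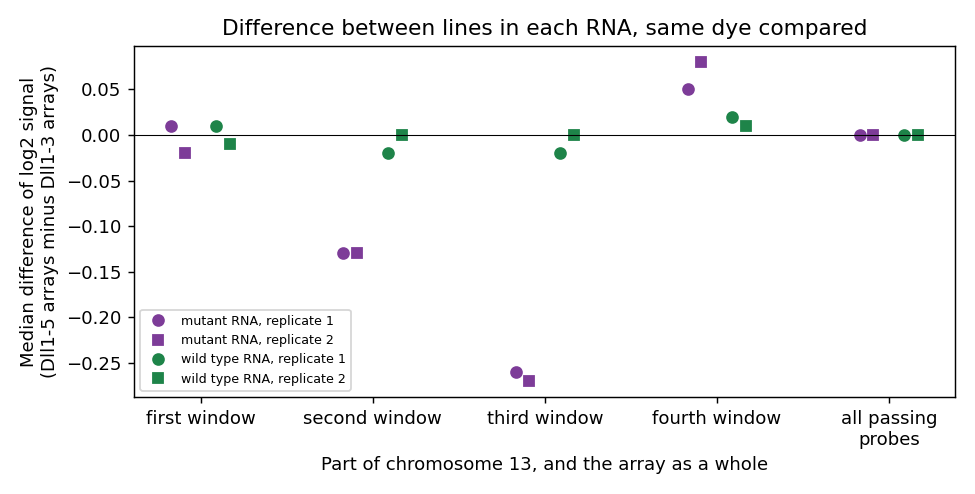
The y axis is the median difference of log2 signal between Dll1-5 and Dll1-3 arrays of the same dye orientation, for mutant RNA and wild-type RNA, in each window and over all passing probes. Mutant RNA of the third window sits at -0.26 and -0.27 while wild-type RNA sits at -0.02 and 0.00.

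Bright probes showed more of the difference than dim ones. In the brightest tercile of the third window (150 probes) the medians were 0.43 in Dll1-3 and -0.08 in Dll1-5, a difference of -0.57 per probe, or 1.49-fold, with 118 probes below and 18 above. The middle tercile had -0.32 (142 probes) and the dimmest -0.06 (149 probes). Over all probes of the array the brightest tercile had 0.03, with 4024 of 11400 probes below and 4280 above. Background correction with an offset of 50 pulls the ratios of dim probes toward 0, and its part in this order was not tested beyond the settings listed at the end. In the fourth window the brightest 20 probes had medians of -1.0 in Dll1-3 and -0.69 in Dll1-5.

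**Figure D3:**
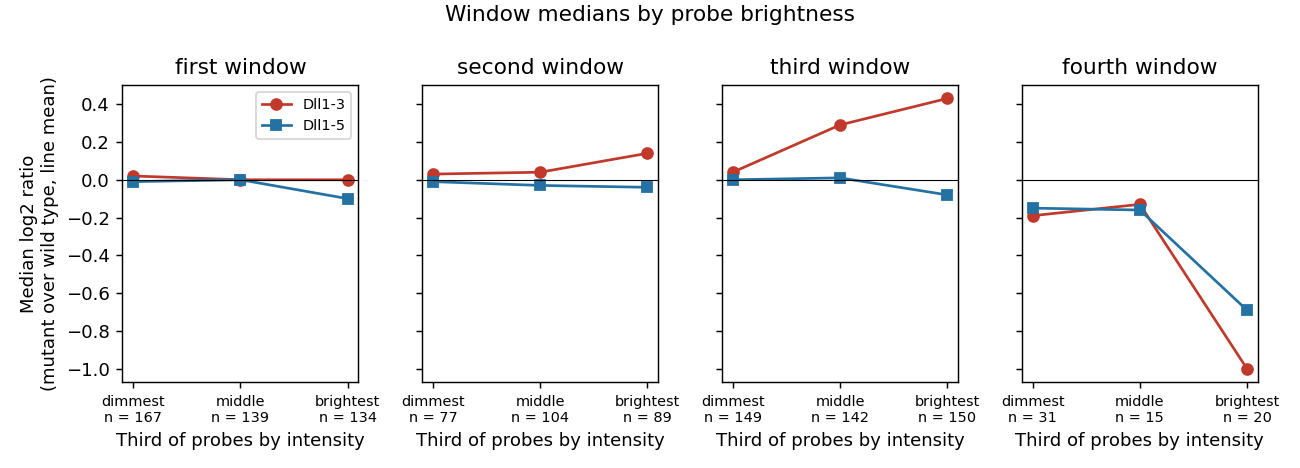
The y axis is the median log2 ratio of each line, and the x axis holds the dimmest, middle and brightest tercile of probes in each window, with their number. The lines part most in the bright probes of the third window (0.43 and -0.08) and are both lowest in the bright probes of the fourth (-1.0 and -0.69).

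Genes of the cell cycle and DNA repair were the group with the widest gap among the 7 role lists by median. Of 20 listed genes on chromosome 13, all measured, both Dll1-5 arrays lay below both Dll1-3 arrays in 18 and above them in 1, and the median difference was -0.86, beside 25.3% of all probes below. The 13 in the third window all lay below, from -1.50 to -0.34, with a median of -0.97, in a window where 56.2% of probes and 145 of 265 symbols lay below. A gene is shown by its brightest probe, and bright probes had more of the difference, so nothing is read from the listed genes' count against the window's.

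Ccnb1, cyclin B1, stood at 2.21 and 1.92 on the Dll1-3 arrays and at 0.97 and 0.63 on the Dll1-5 arrays, with differences of -1.43 to -1.26 on its 3 probes. Trip13, a factor of the spindle checkpoint outside the lists, stood at 2.96 and 2.77 against 1.44 and 1.22. Depdc1b stood at 2.31 and 2.30 against 0.91 and 0.84. All 3 were above wild type on every array, and further above it in Dll1-3. The centromere protein gene Cenph stood at 1.95 and 2.07 against 0.70 and 0.81, and its other probe had a smaller difference of -0.24 against -1.25. Cenpk, of the same protein complex at the centromere, stood at 1.05 and 1.05 against 0.10 and 0.07, with another of its probes at 0.06 (Dll1-5 minus Dll1-3). In these genes Dll1-5 was closer to wild type than Dll1-3 was.

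Xrcc4, which joins broken DNA ends with its ligase, stood at 1.25 and 0.94 in Dll1-3 and at 0.22 and -0.01 in Dll1-5, though another of its 3 probes had a difference of 0. Ercc8, of transcription-coupled repair, stood at 0.95 and 0.71 against -0.62 and -0.72, so the lines lay on either side of wild type; its 3 probes ranged from -1.50 to -0.24. Msh3, of mismatch repair, stood at 0.31 and 0.08 against -0.19 and -0.35. Kif2a, a microtubule-depolymerising kinesin, stood at 0.40 and 0.45 against -0.36 and -0.35. On the probe shown, these last 3 were above wild type on both arrays of one line and below it on both arrays of the other. The probes of Kif2a had means over both lines from 0.04 to 0.68, with differences from -0.77 to -0.27. Those means ran from -0.04 to 0.19 for Msh3 and from -0.58 to 0.08 for Ercc8.

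Listed cell cycle genes outside the third window were mostly lower in Dll1-5 as well. Gmnn, the inhibitor of repeated DNA licensing, in the first window stood at 1.83 and 1.53 against 1.03 and 0.68. Cks2, a small partner of cyclin-dependent kinases, in the second stood at 2.78 and 2.59 against 1.60 and 1.47. The exception was Cdc14b, a phosphatase, at -0.93 and -0.76 against -0.48 and -0.63. For 30 cell cycle genes on other chromosomes, a list written after results were known, the median was 1.71 in Dll1-3 and 1.08 in Dll1-5, with 27 of 30 below. The median difference of these 30 genes was -0.55, and 25.3% of all probes tested lay below. Because the list followed the results, nothing is read from its values beyond their size. Without the listed cell cycle genes the third window had a median difference of -0.19 over 406 probes, of which 53.9% lay below. Without any listed gene it had -0.16 over 359 probes, of which 52.6% lay below. Unlisted genes such as Trip13 remained among these probes, and the part of the cell cycle in the shift was not tested.

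**Figure D4:**
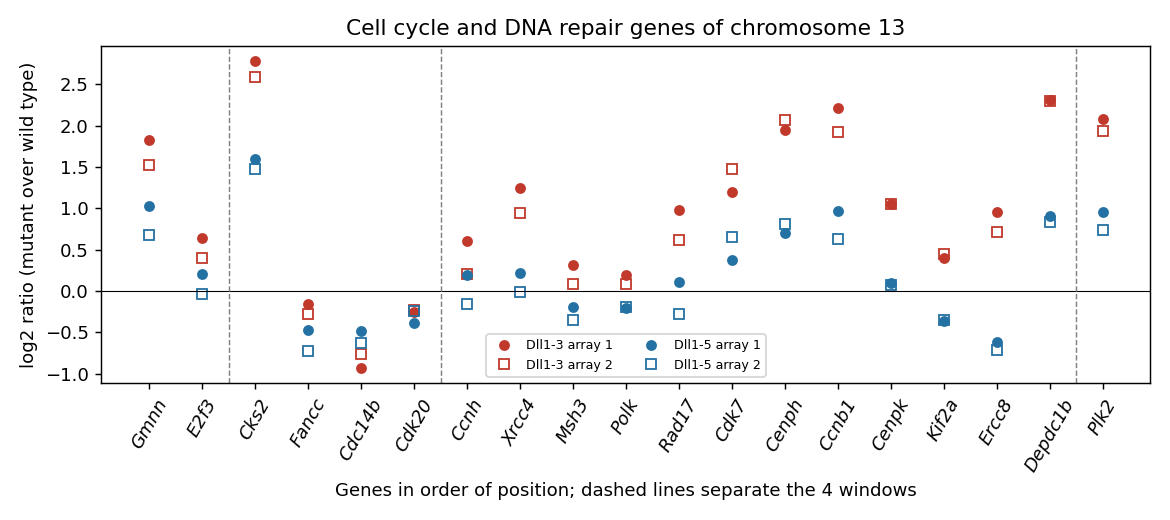
The y axis is the log2 ratio of mutant over wild type on each array for 19 of the 20 listed cell cycle and DNA repair genes, in order of position, with 1 probe per gene and dashed lines between windows. The Dll1-3 points lie above the Dll1-5 points in all 12 genes plotted from the third window, and Cdc14b in the second window is the gene with the opposite order.

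The neighbourhood of Ccnb1, chosen after its values were seen, spans bases 96771373 to 96991113 in the array files. Of its 19 probes for 8 genes, both Dll1-5 arrays lay below both Dll1-3 arrays on 17 and above them on 0. Each of the 8 genes had a probe that lay below. The share below was 25.3% over all probes tested and 56.2% in the third window. Ak6, an adenylate kinase of the nucleus, stood at 1.80 and 1.90 against 0.12 and 0.30. Rad17, which loads a checkpoint clamp on damaged DNA, stood at 0.98 and 0.62 against 0.11 and -0.28. Taf9, of the basal transcription factor TFIID, had differences of -0.97, -0.69 and -0.65 on its probes. Cdk7, the kinase that activates other cyclin-dependent kinases, had -0.82, -0.17 and -0.03, and the zinc transporter gene Slc30a5 -0.84, -0.73 and 0. Genes with and without a role in division were among those that lay below. The block was chosen for its values, so nothing is read from their shared direction. Taf9 and Ak6 come from a locus with shared exons, and their values may not be independent.

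Neuronal genes were counted next. Of the 11 measured on the chromosome, 8 lay below and 1 above, with a median of -0.41, and in the third window 6 of 6 lay below, beside 25.3% of all probes and 56.2% of the window's. Map1b, a microtubule-associated protein of growing axons, stood at 0.87 and 0.70 in Dll1-3 and at -1.06 and -0.86 in Dll1-5, and its other probe had a difference of -0.76. Homer1, a scaffold of the synapse, stood at 0.74 and 0.72 against -0.43 and -0.55, with probes from -1.22 to -0.24. On the probe shown, both genes were above wild type in one line and below it in the other. Smn1, which assembles splicing particles and whose loss harms motor neurons, stood at 0.97 and 1.09 against 0.16 and 0.33. Scamp1, of secretory vesicles, was below wild type in both lines on the probe shown, at -0.48 and -0.47 against -0.99 and -1.01. Its 3 probes had means over both lines from -0.74 to 0.12 and differences from -0.52 to -0.06.

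Of the sterol and energy metabolism list 10 genes lie on the chromosome and 9 were measured, of which 8 lay below and 0 above, with a median of -0.47, again beside 25.3% of all probes below. Dimt1, a ribosomal RNA methyltransferase that does not act in sterol metabolism, stood at 1.67 and 1.75 against 0.66 and 0.68. Srd5a1, a steroid reductase outside the lists, had the lowest difference of the third window among genes chosen by the naming rule, at 1.89 and 1.76 against -0.23 and -0.39, or -2.13; its other probe had -0.62.

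Matrix genes shared no order. Of 11 measured on the chromosome, 4 lay below and 2 above, with a median of -0.03. Edil3, a secreted integrin ligand, stood at 1.87 and 1.75 against 0.12 and 0.11, but its 4 probes ranged from -1.70 to -0.05. Vcan, the proteoglycan versican, stood at 0.61 and 0.60 against -0.65 and -0.58, with probes from -1.22 to 0.09. Thbs4, a thrombospondin, had the opposite order at -0.31 and -0.49 against 0.30 and 0.01, and Hapln1, a link protein of the matrix, had a difference of 0.01. The signalling list had 3 below and 6 above among 15, with a median of 0.03, and the transcription list 7 below and 4 above among 16, with 0.03. Beside these lists, 25.3% of all probes tested lay below and 27.1% above.

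In all, 35 listed genes lay in the third window, of which 30 lay below and 3 above, beside 145 of its 265 symbols below. The third window also held genes with the opposite order, 31 of its 265 symbols. Slc9a3, a sodium-proton exchanger, stood at -1.03 and -1.14 in Dll1-3 and at 0.08 and -0.14 in Dll1-5. Tppp, a tubulin-binding protein of oligodendrocytes, stood at -1.18 and -0.84 against -0.12 and 0.10. Adcy2, an adenylyl cyclase, stood at 0.16 and 0.13 against 1.07 and 0.91. The stretch was therefore not uniform, and neighbouring genes could differ in opposite directions.

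The second window had a smaller median difference and single genes with differences down to -1.43 among those named. Gprin1, of neurite growth, stood at 0.61 and 0.50 in Dll1-3 and at -0.90 and -0.85 in Dll1-5. Mxd3, a partner of Max, stood at 1.22 and 1.15 against 0.10 and 0.13, and Cenpp, another centromere gene, at 2.21 and 2.33 against 1.07 and 1.35, though its 3 probes ranged from -1.06 to 0.05. Aopep, an aminopeptidase gene, went the other way at 0.30 and 0.17 against 1.43 and 1.36, though a further probe of it had -0.03. Nsd1, a histone methyltransferase, did not stand clear of background in mutant RNA of Dll1-3 on either array and was at least 2.41-fold lower than wild type there.

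The first window held the histone cluster, whose members differed between the lines in both directions. Of 23 measured histone genes, Dll1-5 lay above in 13 and below in 7, with a median of 0.47. Over all probes tested the shares were 27.1% above and 25.3% below. H1f2, a linker histone gene, stood at -3.31 and -3.23 in Dll1-3 and at -1.15 and -1.12 in Dll1-5. H2ac8 stood at 0.29 and 0 against 1.83 and 1.85, while H2ac13 stood at 1.55 and 1.61 against 0.18 and 0.37 and H2ac15 at 1.54 and 1.65 against 0.24 and 0.38. Histone genes of a class are near-identical in sequence, so which copy a probe measured is uncertain, and H2ac13 and H2ac15 may be the same signal. Outside the cluster, Mylip, a ubiquitin ligase for the LDL receptor, stood at 2.09 and 1.86 against 0.25 and 0.02. Its other probe had a difference of -0.60 and a mean over both lines of 0.17. Klf6, a transcription factor, stood at 0.97 and 0.89 against -0.50 and -0.65.

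Beyond 105 Mb both lines were low. Of 66 fourth-window probes, 37 were below wild type on all 4 arrays, or 56.1%, beside 25.6% of all probes tested, and 4 were above it on all 4, or 6.06%, beside 23.9%. Of its 47 symbols, 24 were below and 4 above. At least 2-fold higher on both arrays were 1 of its probes in Dll1-3 (1.52%, beside 3.99%) and 0 in Dll1-5 (beside 2.56%). At least 2-fold lower on both arrays were 10 probes in Dll1-3 (15.2%, beside 5.18%) and 7 in Dll1-5 (10.6%, beside 3.02%). With an offset of 10 in place of 50 the window's medians were -0.48 in Dll1-3 and -0.38 in Dll1-5, and with the cut moved 2 Mb toward the centromere that of Dll1-3 was -0.12.

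Parp8, of the family that attaches ADP-ribose to proteins, had the lowest mean over both lines in the fourth window among named genes, at -2.67 and -2.35 in Dll1-3 and -2.14 and -1.96 in Dll1-5. Il6st, the receptor subunit shared by cytokines such as LIF and CNTF that drive astrocyte formation, stood at -1.47 and -1.70 against -0.94 and -1.26. Map3k1, a kinase upstream of JNK, stood at -1.70 and -1.73 against -0.75 and -0.80. Plpp1, a lipid phosphatase, stood at -1.77 and -1.81 against -0.63 and -0.69, and its 3 probes had means over both lines of -1.22 to -0.79. In Map3k1, Plpp1 and the amino acid transporter gene Slc38a9 (-1.45 and -1.35 against -0.72 and -0.71) Dll1-3 was the lower line. The 4 probes of Slc38a9 had differences from 0.12 to 0.68 and means over both lines from -1.06 to -0.38.

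Other genes were lower in Dll1-5. Arl15, a small GTPase, stood at -1.11 and -0.90 in Dll1-3 and at -2.02 and -1.89 in Dll1-5. Pelo, of ribosome rescue, stood at -0.16 and -0.17 against -1.28 and -1.23, and Mocs2, of molybdenum cofactor synthesis, at -0.96 and -1.13 against -1.55 and -1.64. Ccno, a cyclin of cells that form many cilia, differed from wild type in Dll1-3, at -1.49 and -1.59, and not beyond its array spread in Dll1-5, at -0.04 and 0.01. Emb, an immunoglobulin-family adhesion protein, did not stand well above background in mutant RNA of either line on the probe shown. On that probe it was at least 1.98-fold lower than wild type over both lines. Its other probe had a mean over both lines of -0.22.

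Plk2, a stress-induced kinase of the polo family, was above wild type at 2.08 and 1.93 in Dll1-3 and 0.95 and 0.74 in Dll1-5. Mtrex, an RNA helicase of the nuclear exosome, was above it by less, at 0.31 and 0.48 against 0.23 and 0.43, and another probe of it had a mean over both lines of -0.17. Several other genes of the window were near wild type, among them Isl1 at 0.02 and -0.16 against 0.05 and -0.03, Mier3 at -0.15 and -0.10 against 0.13 and -0.20 and Itga2 at -0.01 and 0.13 against -0.08 and -0.01. The low values of the fourth window thus came from some of its genes and not from all.

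**Figure D5:**
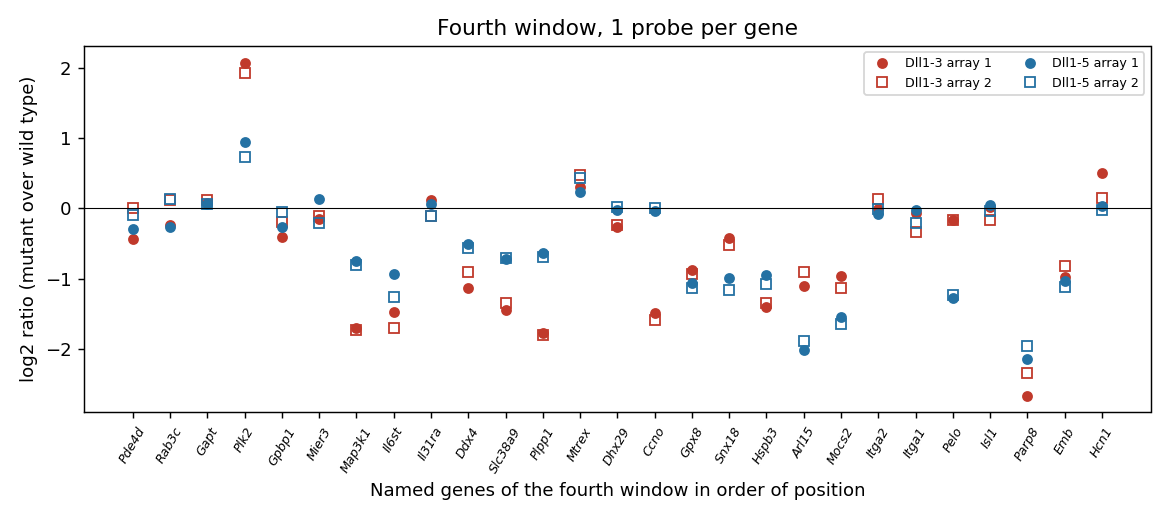
The y axis is the log2 ratio of mutant over wild type on each array for the genes with a symbol in the fourth window, 1 probe each, in order of position. Parp8 lies lowest, from -2.67 to -1.96, and Plk2 lies highest, from 0.74 to 2.08.

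Against wild type over both lines, no probe passed. In limma's moderated test on the line means, 0 of 1217 chromosome 13 probes had a Benjamini-Hochberg adjusted p under 0.05, beside 0% of all 34198, and the smallest adjusted p on the chromosome was 0.0752. At an unadjusted p under 0.05, 112 were higher in mutant RNA (9.2%, beside 11.7%) and 176 lower (14.5%, beside 15.2%), shares near those of the whole array. In the fourth window 2 were higher and 25 of 66 lower, or 37.9%. With 1 residual degree of freedom these p-values measure only the spread between these samples, which may be technical, and variation among wild-type pools does not enter. Treating the arrays as separate samples gave 363 probes, or 29.8%, beside 11301 of all 34198. An offset of 10 gave 43, or 3.53%, beside 1674 of all probes. The count also rose above 0 without Dll1-3 array 1 or Dll1-5 array 2, where a line rests on 1 array.

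Of the role lists, 0 genes passed the adjusted threshold in limma's test. At an unadjusted p under 0.05, 7 of the 20 cell cycle genes were higher in mutant RNA and 2 lower, 6 histone genes higher and 3 lower, 1 signalling gene higher and 6 lower, and 2 transcription genes higher and 5 lower. The matrix list had 0 higher and 3 lower, and the sterol and neuronal lists each 1 higher and 3 lower, beside 11.7% and 15.2% of all probes. Among named genes with the same sign on all 4 arrays, Tubb2b, a tubulin of developing neurons, stood at -2.07 and -2.58 in Dll1-3 and -2.22 and -2.47 in Dll1-5, so its lines overlapped. Ntrk2, the BDNF receptor, stood at -1.71 and -1.82 against -2.43 and -2.50, with a difference of -0.70 to -0.19 over its 3 probes. Zfp87, a zinc finger gene, stood at 2.02 and 1.71 against 1.87 and 1.86, and its other probe had a mean over both lines of 0.36. Polr3g, a subunit of RNA polymerase III, stood at 2.27 and 2.29 against 1.08 and 1.02. Its 3 probes had means over both lines from 0.49 to 1.66.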

How the data were processed

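Per the labels, total RNA of mutant and wild-type neurospheres was hybridised to 2-colour Agilent arrays, with mutant RNA in Cy5 for replicate 1 and in Cy3 for replicate 2 of each line. The authors deposited scanner intensity values, written by Agilent Feature Extraction 8.1.1.1 per the file headers, with a log10 ratio of Cy5 over Cy3 beside them. The deposited value table of the series holds log10 ratios too, of wild type over mutant by its correlation with the scanner ratios (r from -0.961 to -0.953); how it was made is not given in the sources.

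Mean signals were background-corrected with normexp (offset 50) and loess-normalised (span 0.3) in limma 3.58.1 under R 4.3.3, with control and outlier spots at weight 0, and turned to log2 mutant over wild type. Spots of a probe were averaged. Saturated spots were kept. Each array had a slide of its own and all were scanned on the same day per the file headers, so slides could not be tested as batches. Channels were separated with Aquantile. Arrays of a line were averaged before lmFit and eBayes against 0, adjusted by Benjamini-Hochberg over 34198 probes, at 0.05; the fit was tested on simulated data. A probe not above background in a group has only a bound: the brighter mean set against a floor, which on each array is the dim probe's signal or, if that is higher, the lowest signal called well above background.

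A gene is shown by its brightest probe. Names of chromosome 13 probes came from RefSeq (GRCm38.p6) through accessions (817), symbols (272) or synonyms (127), with 323 left as in the files; 5 named genes lie on another chromosome there. Where a probe lies within its gene was not analysed here. Genes named are, per window, the 4 highest and 4 lowest by line difference without overlap of arrays, the 6 highest and 6 lowest over both lines, members of 7 role lists, and members beside the cuts. Some genes that this rule names are not reported here. Members, cuts, lists and rule were chosen with earlier results of these data known.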

Additional observations from a re-analysis of the deposited data

Results flagged for a closer look

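In the results of this section both arrays of one line lay above wild type and both arrays of the other lay below it; the difference between the lines was not tested. Among bins of 5 Mb this held, as median of Dll1-5 minus Dll1-3, from 5 to 10 Mb (-0.10), from 55 to 60 Mb (-0.09), from 70 to 75 Mb (-0.13), from 90 to 95 Mb (-0.28) and from 100 to 105 Mb (-0.36), so 3 of the 5 lie in the third window.

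Among third-window genes with Dll1-3 above and Dll1-5 below wild type, the same difference was -2.13 for Srd5a1, -1.74 for Map1b, -1.50 for Ercc8, -1.22 for Vcan, -1.22 for Homer1 and -0.77 for Kif2a. It was -0.78 for Mef2c, a transcription factor of muscle and neurons, -0.65 for the thrombin receptor gene F2r, -0.46 for Msh3, -0.45 for the Ras inhibitor gene Rasa1, -0.34 for the DNA polymerase gene Polk and -0.18 for Mccc2, of leucine breakdown. The opposite order was seen for Thbs4 at 0.55 and for Foxd1 at 0.29, whose other probe had -0.17. In the other windows it was -1.51 for Klf6, -1.43 for Gprin1 and 1.06 for H1f3, whose other probe had -0.01. H2ac6 had 0.78, and the receptor gene Fgfr4 had 0.19, with another probe at -0.15. Each gene's order is that of the probe shown, and other probes could differ. The other probe of Srd5a1 had a mean over both lines of 0.58 with a difference of -0.62, so both lines were above wild type. A probe of Kif2a had a mean of 0.68, also with both lines above, and a probe of Vcan had a difference of 0.09.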

How the results depend on the processing

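The third and second windows kept a negative median of Dll1-5 minus Dll1-3 under all 17 alternatives (-0.55 to -0.14, and -0.23 to -0.05), and both lines stayed below 0 in the fourth. Values below are in the order of the windows where 4 are given. An offset of 10 gave -0.02, -0.12, -0.36 and 0.10; scanner ratios -0.05, -0.18, -0.46 and 0.15; the deposited table -0.05, -0.18, -0.47 and 0.17; and the brighter part of the probes, above the median intensity, -0.03, -0.23, -0.55 and 0.19. For the second, the third and the fourth window, no background correction gave -0.08, -0.20 and 0.02; median centring -0.12, -0.28 and 0.06; no filter -0.05, -0.14 and 0.01; all channels above background -0.09, -0.35 and 0.09; 1 probe per gene -0.07, -0.21 and 0.03; and the mean of a gene's probes -0.07, -0.18 and 0.03. Cuts 2 Mb lower gave -0.19 in the third window and -0.02, the opposite sign, in the fourth; cuts 2 Mb higher gave -0.09 in the second and -0.21 in the third. Leaving out 1 array at a time gave -0.03 to 0.03, -0.12 to -0.07, -0.26 to -0.22 and 0 to 0.11. The first window changed sign without Dll1-3 array 1 (0.03) and without Dll1-5 array 2 (0.01), and so did the medians of Dll1-3 there (-0.02) and of Dll1-5 in the third window (0.01) without the same arrays; the causes were not tested.

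Fourth-window medians of Dll1-3 and Dll1-5 were -0.48 and -0.38 with an offset of 10, -0.20 and -0.16 without background correction, -0.85 and -0.51 in scanner ratios, -0.28 and -0.21 with median centring, -0.85 and -0.58 in the deposited table, -0.09 and -0.09 without a filter, -0.49 and -0.40 with all channels above background, -0.16 and -0.13 over the mean of a gene's probes and -0.99 and -0.52 in brighter probes. With cuts 2 Mb lower or higher that of Dll1-3 was -0.12 or -0.28. Leaving out arrays gave -0.30 to -0.25 and -0.30 to -0.18.

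Probes with both Dll1-5 arrays above and below both Dll1-3 arrays numbered 67 and 111 with median centring, which leaves the dye trend in; 120 lay above among brighter probes; 291 and 287 lay below with 1 probe or the mean of probes per gene, where fewer items are counted. Leaving out arrays, where 3 arrays overlap less often by construction, gave 288 to 377 above and 596 to 643 below. Probes at least 2-fold in either direction numbered 244 in Dll1-3 and 154 in Dll1-5 in scanner ratios. All these counts are of chromosome 13, and shares over all probes were not counted under these settings.

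The count past limma's adjusted threshold was 0 on chromosome 13, beside 0 of all probes. With an offset of 10 it was 43 (3.53%), beside 1674 of all probes. In scanner ratios it was 29 (2.38%), beside 953 of all probes. Among brighter probes it was 88 of 580 (15.2%), beside 2769 of all brighter probes. At an adjusted p of 0.1 it was 117 (9.61%), beside 4186 of all 34198 probes. With an array left out a line rests on 1 array, so no count is given. With the 4 arrays as separate samples the chromosome 13 count was 363 (29.8%), beside 11301 of all probes. With a replicate block it was 299 (24.6%), beside 9624, and with line as a random block 313 (25.7%), beside 9573. By the labels the replicate number is also the dye orientation, and no label ties it to an animal. Deviations of replicate 1 arrays from their line means correlated between the lines (r = 0.68 over 34198 probes). Dye orientation cannot be told apart here from anything else that arrays of the same replicate number shared. Each line is counted as 1 pooled replicate, dim probes have compressed ratios, and 4 arrays limit every value.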
